A study of Mus musculus with 2 samples.

Results

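The mouse genes Wwox, Fhit, Park2, Macrod2, Immp2l, Auts2, Prkg1, Sdk1, Exoc4 and Naaladl2, whose human counterparts are linked to common fragile sites, were looked up by symbol in the GENCODE M1 annotation of the mm9 genome and searched for R-loop peaks. Of the 10 genes named, 9 were annotated among the 37273 genes of the annotation. Naaladl2 was not found under this symbol or an older one and was not analysed here. Park2 was split into 2 gene models on the same strand, which were counted together, so that 9 genes and 10 gene models entered the analysis.

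The peaks came from DRIP-seq of primary neural stem/progenitor cells (NSPCs), grown from the frontal brain of C57BL/6 mice at postnatal day 7. The cells were kept for 48 h in 0.5 μM aphidicolin, which slows DNA polymerases and so imposes replication stress. This treatment is known from the study's methods, and the sample labels name none. Genomic DNA was cut with EcoRI, HindIII, BsrGI, SspI and XbaI, and hybrids of RNA with DNA were pulled down with the antibody S9.6 before sequencing. A single peak list was deposited for 3 biological replicates, with positions and no signal, which leaves every value below without a replicate error or a test. The input library, the other of the 2 samples, was not analysed here, and there was no untreated group. Cultured NSPCs can hold differentiating cells, and the list gives no transcript level of any gene.

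Common fragile sites are regions of the chromosomes that form gaps and breaks when replication is slowed. They often lie in very long genes that take many hours to transcribe and replicate late, so that replication and transcription can meet in the same gene. An R-loop forms when RNA pairs with the template strand of DNA and leaves the other strand single, and stretches rich in G on the non-template strand are known to favour it.

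All 9 genes contained at least 1 R-loop peak, counting an overlap of at least 1 bp. The background was high for genes of this length, as 68.2% of the 528 protein-coding genes of at least 300 kb and 79.4% of the 107 of at least 700 kb had a peak, compared to 39.6% of all protein-coding genes. The fragile site genes were 725 to 1998 kb long and together held 39 peaks in 10.9 Mb. This gave 3.57 peaks per Mb over their pooled length and a median of 2.19 per gene, compared to a pooled 4.88 and a median of 2.60 per Mb in the genes of at least 300 kb. Genes of at least 700 kb, which are closer to them in length, had a median of 1.82 per Mb, so that the direction turned for the median only. It rests on few genes, as the median of 2.19 is the value of Wwox. The pooled density was not compared with this class. Peaks covered 0.434% of their bases. Exoc4 held 16 of the peaks, 41.0% of the total, on 6.64% of the length, and the other 8 genes shared 23. Of these, 4 genes had exactly 1 peak.

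All 39 peak midpoints lay in introns of the fragile site gene itself, in genes whose exons make up 0.0925 to 1.74% of their length. Only 4 peaks touched an exon of these genes, 2 in Auts2 and 2 in Exoc4. Exons of other genes nested in them were not counted. The Prkg1 peak lay wholly within the intronless coding gene Cstf2t, and a peak of Exoc4 overlapped the pseudogene Gm13854. None of the 9 genes had its transcription start site (TSS) in a peak, compared to 9.85% of genes of at least 300 kb and 14.9% of all protein-coding genes. The transcription end site (TES) was likewise outside peaks in all 9 genes, with 2.46% of genes of at least 300 kb and 10.9% of all protein-coding genes as the background. In the first 10% of the gene 5 peaks were found, and in the last 10% 7. The part of the gene beyond its midpoint held 25 of the 39, compared to 50.9% of peaks in other genes of at least 300 kb. Exoc4 contributed 12 of its 16, and in the other 8 genes 13 peaks lay beyond the midpoint and 10 before it.

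**Figure D1:**
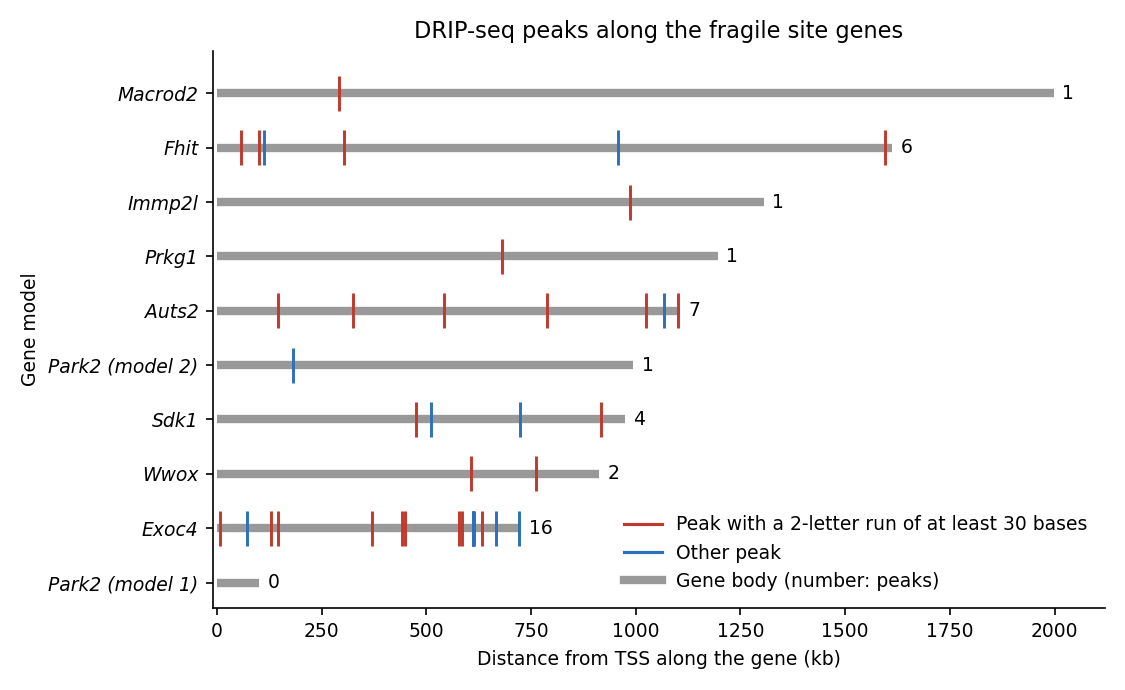
Peaks along each gene model, drawn to scale by the distance of the peak midpoint from the TSS in kb; grey bars are gene bodies and the number at the right is the count of peaks. The 16 peaks of Exoc4 stand against 1 peak each in Macrod2, Immp2l, Prkg1 and Park2, and red ticks mark the 27 peaks with a run of at least 30 bases in 2 letters.

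The sequence under the peaks shared a feature that the choice of genes did not use. In 27 of the 39 peaks the DNA contained a run of at least 30 bases made of only 2 letters, either A and G, C and T, G and T or A and C. These pairs cover both strands, since C and T on one strand is A and G on the other. Such runs occurred in 69.2% of these peaks, in 56.9% of the 1416 peaks in other protein-coding genes of at least 300 kb and in 50.4% of all 22132 peaks. They were therefore common in the whole list, although they took up little of the genes themselves. Of windows of 500 bp along the same genes, 12.8% held one, and of windows of each peak's own width along its own gene, 24.5% on average. Runs and their minimum length were chosen after the peak sequences had been seen, and the counts carry no test. The following stretches are printed because they show the kinds of run found in 4 of the genes. Each is read 5′ to 3′ on the coding strand of mm9, which for Fhit is the minus strand and for the others the plus strand, with the run in capitals and its flanks in lower case. All lie in introns.
Wwox, chr8:117568917-117568978: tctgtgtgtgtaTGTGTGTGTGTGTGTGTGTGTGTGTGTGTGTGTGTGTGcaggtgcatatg
Wwox, chr8:117724591-117724708: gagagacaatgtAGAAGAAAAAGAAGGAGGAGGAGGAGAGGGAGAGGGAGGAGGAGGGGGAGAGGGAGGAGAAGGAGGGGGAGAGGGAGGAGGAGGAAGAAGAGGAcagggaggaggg
Fhit, chr14:11894425-11894579: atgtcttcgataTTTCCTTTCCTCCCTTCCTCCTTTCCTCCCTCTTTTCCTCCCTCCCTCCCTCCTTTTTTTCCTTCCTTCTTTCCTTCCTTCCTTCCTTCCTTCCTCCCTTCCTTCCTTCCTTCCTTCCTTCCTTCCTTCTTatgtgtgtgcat
Macrod2, chr2:140513342-140513462: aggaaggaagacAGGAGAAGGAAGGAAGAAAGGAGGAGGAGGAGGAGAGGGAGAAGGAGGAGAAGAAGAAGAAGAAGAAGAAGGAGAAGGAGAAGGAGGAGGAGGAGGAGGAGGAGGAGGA
Immp2l, chr12:42737645-42737703: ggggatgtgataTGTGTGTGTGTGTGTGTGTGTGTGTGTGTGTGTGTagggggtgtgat
The first Wwox run and that of Immp2l alternate T and G, whereas the second Wwox run and that of Macrod2 mix A and G with G in excess. The Fhit run is of C and T, which places its G on the template strand. Over the 27 peaks, the G of the longest run lay on the coding strand in 13 and on the template strand in 14. By letters, the longest run was of A and G in 6 peaks, of C and T in 6, of G and T in 7 and of A and C in 8. GC skew, which is G minus C over G plus C on the coding strand, was taken over the whole peak, with or without a run. It was positive in 19 of the 39 peaks and negative in 20.

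The counts were also taken by peak size. Among the 23 peaks shorter than 1 kb, 14 held a run, compared to 45.7% of all peaks under 1 kb and 56.3% of those in other long genes. Windows of the widths of these short peaks along the same genes held one in 13.0% of cases. Of the 16 peaks of at least 1 kb, 13 had one, with 53.7% of all peaks of this size as the background and 41.0% of windows of their widths. Outside Exoc4 the count was 17 of 23, and in Exoc4 10 of 16. With a minimum of 20 bases it was 32 of 39 against 69.2% of all peaks and 73.9% of those in other long genes. With 40 bases it was 17 of 39, or 43.6%, against 36.4% of all peaks and 43.4% in other long genes. At this length the share was thus no higher than in other long genes, and for peaks under 1 kb it was 39.1% against 43.9%. A second sequence pattern, 4 runs of at least 3 G separated by 1 to 7 bases on either strand, which can fold into a G-quadruplex, was found in 10 of the 39 peaks and in 38% of all peaks. The 39 peaks were shorter and lower in GC content than all peaks, and these shares were not matched for either. Whether reads place uniquely in repetitive stretches such as the runs is not recorded in the list, and its part in the peaks was not tested.

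**Figure D2:**
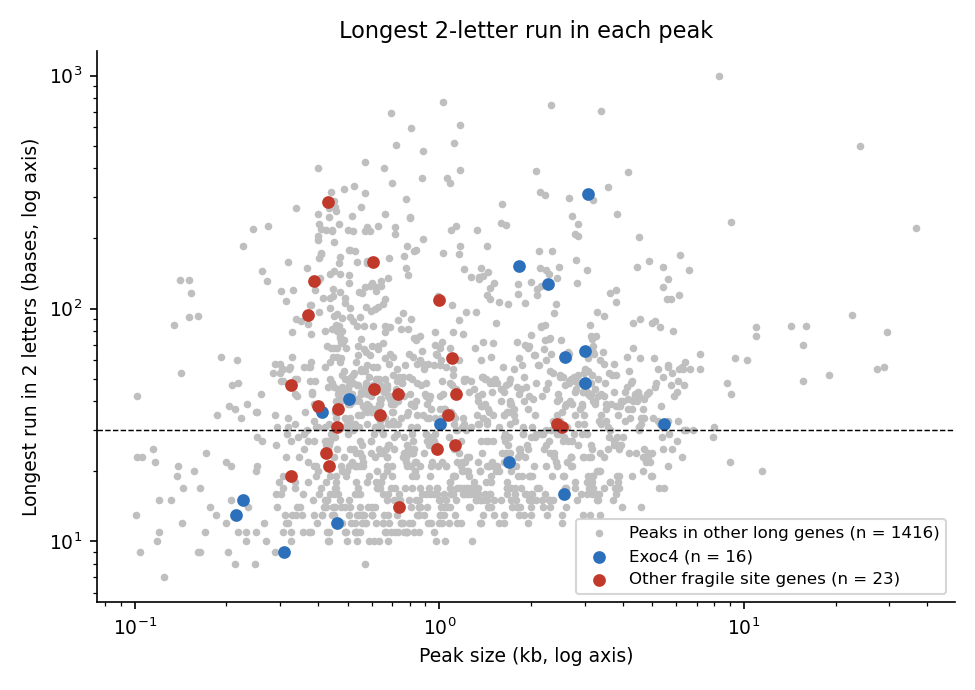
Length of the longest run in 2 letters, in bases, against peak size in kb, both on log axes, for the peaks of Exoc4, of the other fragile site genes and of other protein-coding genes of at least 300 kb; the dashed line marks 30 bases. Peaks above the line occur at all sizes, and the runs of the fragile site genes lie within the range of those in other long genes.

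Wwox and Fhit encode tumour suppressors, a WW domain oxidoreductase and a hydrolase of diadenosine polyphosphates, and are the genes best known from common fragile sites. Wwox (ENSMUSG00000004637) is a gene of 913 kb (chr8:116963555-117876608, plus strand). It held 2 narrow peaks of 0.399 and 0.372 kb, both in intron 8 of its longest coding transcript, a single intron of 639 kb. They lay 605 and 761 kb from the TSS, at 66.3 and 83.4% of the gene, and covered 0.0844% of it. Their GC content was 51.9 and 48.1%, above the 45.8% of the gene. Fhit (ENSMUSG00000060579) is a gene of 1612 kb (chr14:10382606-11994549, minus strand) and held 6 peaks, or 3.72 per Mb. The peak nearest the TSS was 56.7 kb away, and 4 of the 6 lay in intron 2, of 374 kb. They were 0.389 to 1.10 kb wide, so that Fhit, with 3 times the number of peaks in Wwox, was covered to 0.239%. Both genes carried peaks deep in large introns and none at the promoter.

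Park2 and Immp2l encode parkin, a ubiquitin ligase that marks damaged mitochondria, and a subunit of the inner mitochondrial membrane peptidase. In Park2 the short first model (ENSMUSG00000073465) of 101 kb had 0 peaks, and the second (ENSMUSG00000023826) of 995 kb had 1, of 0.326 kb, in intron 2 and 181 kb from the start of that model. This was the lowest coverage of the 9 genes, 0.0298%, and the peak had no run of 30 bases and a GC skew of 0.73 on the coding strand. A further peak, from 11201341 to 11202151 on chromosome 17, lay between both models and is counted only if they are joined. Immp2l (ENSMUSG00000056899), of 1306 kb (chr12:41750677-43056575, plus strand), held 1 peak of 1.07 kb at 987 kb from the TSS. Assembly gaps made up 29.2% of this gene in mm9, where no peak can be placed, and 0% of every other model, so that its 0.766 peaks per Mb is a value over all bases, gaps included. Lrrn3, a gene for a neuronal leucine-rich repeat protein that lies within Immp2l on the other strand, had 0 peaks.

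Macrod2, which encodes an enzyme that removes ADP-ribose from proteins, was the longest of the genes and had the lowest density. The gene (ENSMUSG00000068205) is 1998 kb long (chr2:140221045-142218702, plus strand) and held 1 peak of 0.996 kb at 292 kb from the TSS, or 0.501 peaks per Mb. Of the 528 genes of at least 300 kb, 358 had more peaks per Mb. This peak had 51.8% GC against 38.6% for the gene. It lay 15.3 kb from Flrt3, a gene for an axon guidance receptor nested in Macrod2 on the other strand, which itself had 0 peaks. From the TES of Macrod2 to the next peak on the chromosome the distance was 1545 kb.

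Auts2 and Sdk1 are neural genes, for a nuclear regulator of brain development and for a cell adhesion protein of synapses. Auts2 (ENSMUSG00000029673), of 1106 kb (chr5:131913205-133019214, minus strand), held 7 peaks, spread from 145 to 1100 kb from the TSS, or 6.33 per Mb. The mean GC content of its peaks was 49.1% ± 3.42 (SD over 7 peaks), and each of them exceeded the 43.6% of the gene. In 6 of the 7 peaks a run was present. The 3 peaks nearest the TES lay within 8% of the gene length of it, and 2 of them touched exons by 14 and 664 bp. One of its shorter coding transcripts began inside a peak, the only such case among all coding transcripts of the 9 genes. Sdk1 (ENSMUSG00000039683), of 974 kb (chr5:141717444-142691540, plus strand), held 4 peaks of 0.424 to 1.13 kb, none of them in the first 475 kb. Their density was 4.11 per Mb, and 2 of the 4 held a run.

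Prkg1 and Exoc4 encode a cGMP-dependent protein kinase and a subunit of the exocyst, the complex that tethers secretory vesicles to the membrane. Prkg1 (ENSMUSG00000052920), of 1196 kb (chr19:30643728-31839312, minus strand), held 1 peak of 2.53 kb, from 31157899 to 31160425. This peak coincided with Cstf2t, an intronless gene for a polyadenylation factor that lies in intron 3 of Prkg1 on the other strand, and covered 67.4% of it. It began 0.568 kb inside Cstf2t and so did not include its TSS. Since DRIP-seq keeps no strand in this list, the peak cannot be assigned to Prkg1 or Cstf2t, and counting only peaks that overlap no other gene left Prkg1 with 0. Of the 28 annotated genes that overlap the fragile site genes, 2 had a peak, Cstf2t and the pseudogene Gm13854 in Exoc4.

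Exoc4 (ENSMUSG00000029763), a gene of 725 kb (chr6:33199085-33923979, plus strand), stood apart from the others with 22.1 peaks per Mb and 3.95% of its bases covered. Its peaks were wider, with a median of 1.76 kb compared to 0.609 kb for the 23 peaks of the other genes, and 10 of its 16 reached 1 kb. The widest, of 5.46 kb, began 4.09 kb inside the gene in intron 1. Further along, 8 peaks had their midpoints within 100 kb, from 33775021 to 33866842, at 79.6 to 91.9% of the gene. This count includes 3 neighbours parted by gaps of a single base, which would be 1 peak if merged, leaving 14 in the gene. Another peak lay 0.656 kb beyond its end. The following stretch shows an A and G run from a peak within the group of 8, on the plus strand of mm9 with the run in capitals, in an intron.
Exoc4, chr6:33831558-33831647: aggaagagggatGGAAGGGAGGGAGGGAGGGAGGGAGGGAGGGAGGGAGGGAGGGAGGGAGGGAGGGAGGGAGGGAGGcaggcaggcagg
This stretch, with 61 G and 3 C in the 90 bases shown, carries G on the non-template strand. Among the 10 Exoc4 peaks with a run, the G of the longest run lay on this strand in 4 and on the template strand in 6. In the group of 8, however, 3 peaks had their longest run under 16 bases, and the list of 16 included 6 with no run of 30. The short-run peaks that start at 33809077 and 33809293 are single-base neighbours of the peak from 33809603, whose longest run was 48 bases.

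The density of peaks in genes of at least 300 kb rose with their GC content. Spearman's rho over the 528 genes was 0.52 and Pearson's r 0.46, given as a description because genes of one list share its depth and their neighbourhood on the chromosome. The fragile site genes fell on both sides of this relation. Exoc4 had 39.7% GC, and of the 110 long genes within 1 percentage point of it, with a median of 2.27 peaks per Mb, 1 had more peaks per Mb. Wwox was the most GC-rich of the group at 45.8%, and of the 48 long genes within 1 point of it, with a median of 8.56 peaks per Mb, 6 had fewer. The order of density over all bases was Exoc4, Auts2, Sdk1, Fhit, Wwox, Park2, Prkg1, Immp2l and Macrod2. The place of Immp2l depends on counting its assembly gaps, which make up 29.2% of the gene. Without replicates, neighbours in this order, such as Park2 and Prkg1 with 1 peak each, cannot be told apart.

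**Figure D3:**
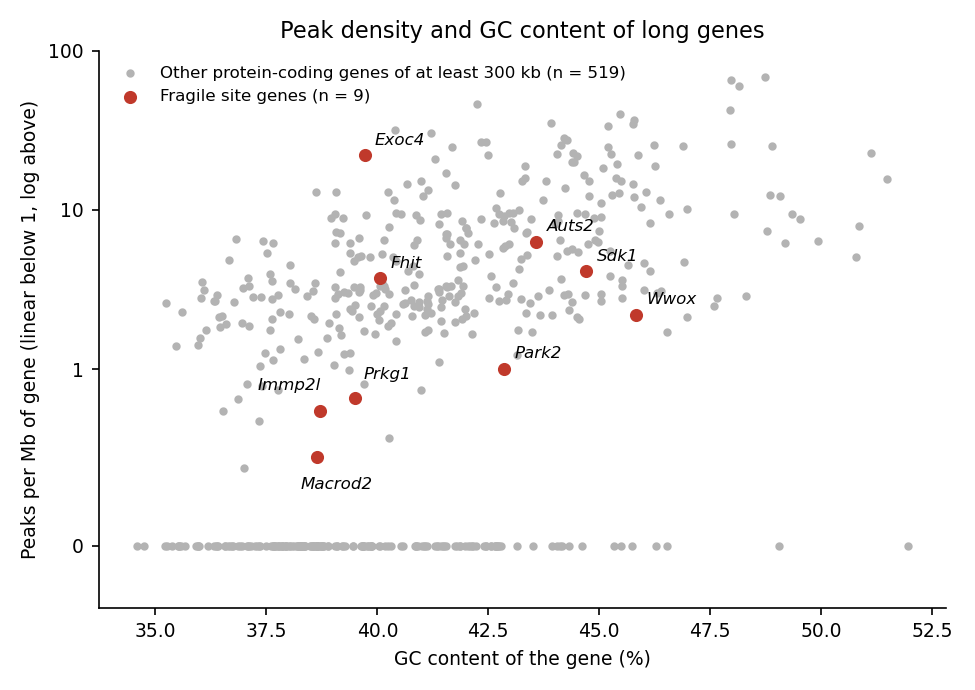
Peaks per Mb against the GC content of the gene in percent for 528 protein-coding genes of at least 300 kb, on a vertical axis that is linear below 1 and logarithmic above; Park2 is shown by its longer model. Exoc4 lies at the upper edge of genes of its GC content, and Wwox lies low among those near 45.8%, with some genes below it.

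Within the genes, peaks sat in GC-richer DNA, as in long genes at large. In 36 of the 39 peaks the GC content exceeded that of the whole gene, compared to 80.2% of peaks in other genes of at least 300 kb. The mean was 45.7% ± 4.19 (SD over 39 peaks). This was below the 49.2% ± 6.04 of all peaks and the 47.99% of peaks in other genes of at least 300 kb. The median size was 0.730 kb, compared to 0.929 kb in other long genes and 1.32 kb in the whole list, and 41.0% of them reached 1 kb compared to 58.7% of all peaks. The DNA had been digested, and the median fragment between sites of the 5 enzymes was 0.312 to 0.467 kb in the longest model of each gene. Of their 78 edges, 23.1% had a site within 100 bp, compared to 28.3% over the whole list, and 25 of the 39 peaks had no site inside.

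The absence of peaks at the TSS was also seen where the promoter was rich in GC. Within 1 kb of the TSS, GC content ranged from 46.8% in Fhit and 47.3% in Exoc4 to 62.9% in Auts2 and 67.3% in Sdk1. Of long genes with at least 60% GC there, 20.5% had the TSS in a peak, and of those with less, 6.97%, so that 0 of 2 and 0 of 7 of the fragile site genes stand beside low backgrounds. The 120 bases before the TSS are printed for the genes at both ends of this range, on the coding strand of mm9 with each CG in capitals, since CG-rich promoters are where R-loops are best known.
Sdk1, chr5:141717324-141717443: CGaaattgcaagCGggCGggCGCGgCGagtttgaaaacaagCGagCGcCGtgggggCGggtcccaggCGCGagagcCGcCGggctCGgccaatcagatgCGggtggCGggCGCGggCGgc
Fhit, chr14:11994550-11994669: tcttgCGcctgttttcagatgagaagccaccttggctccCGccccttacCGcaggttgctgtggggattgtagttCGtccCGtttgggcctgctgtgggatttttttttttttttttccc
The Sdk1 stretch holds 20 CG and the Fhit stretch 5. The nearest peak to the TSS of Sdk1 lay 54.8 kb away and outside the gene. For Exoc4 it lay 4.09 kb away and for Fhit 56.7 kb, both inside the gene. For Wwox it lay 15.0 kb away and outside the gene, whose own first peak was 605 kb from the TSS. For the other 5 genes the distance was more than 100 kb, with Park2 measured from its first model. Of these, only Auts2 had this nearest peak inside the gene.

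The DNA beside the genes was compared with the genes themselves. In the 500 kb on each side, 7 of the 9 genes had more peaks per Mb than in the gene body. Immp2l is among the 7 by its density over all bases, of which 29.2% are assembly gaps where no peak can be placed. Its place among them may not hold without the gaps. Denser flanks were usual for long genes, as 66.5% of the other genes of at least 300 kb and 63.3% of those of at least 700 kb had them. The difference in density was widest for Sdk1, with 27 peaks in its flanks, where 10 other coding genes lie, and 4.11 per Mb within. For Wwox the flanks held 7 peaks per Mb, for Park2 8, for Auts2 10 and for Prkg1 3. Macrod2 and Immp2l lay in peak-poor surroundings, with 1 peak each in 1 Mb of flank. Over all bases, gaps included, only Fhit, with 3 per Mb beside it, and Exoc4, with 8, were denser than their surroundings. With counts this small in 1 list, the values for Fhit, Macrod2 and Immp2l lie close to those of their flanks.

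**Figure D4:**
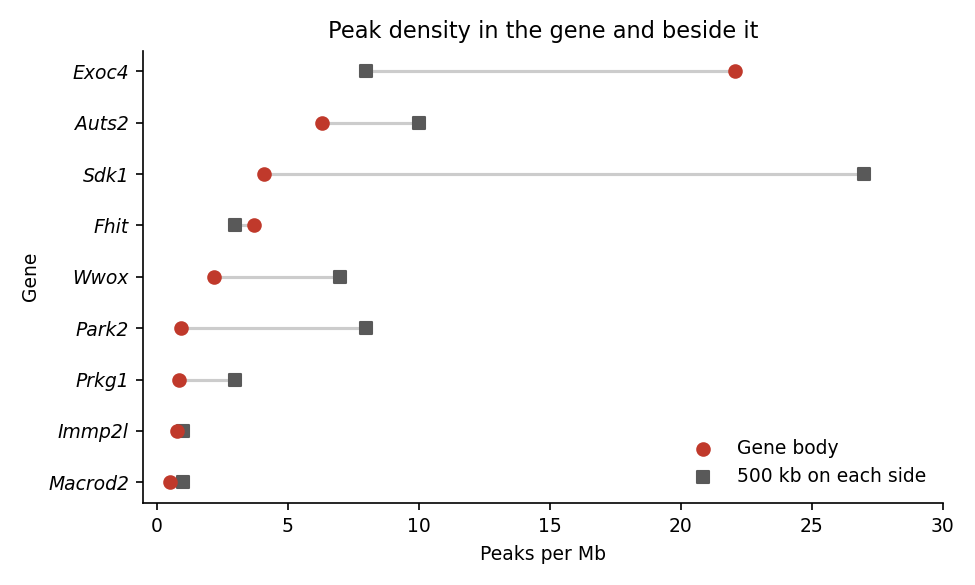
Peaks per Mb in the gene body (red circles) and in the 500 kb on each side, summed (grey squares) for the 9 genes. Sdk1 shows the widest difference, at 4.11 in the gene and 27 beside it. Over all bases, with the assembly gaps of Immp2l included, Exoc4 at 22.1 and Fhit at 3.72 are the genes above their flanks.

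A further 14 long genes linked to common fragile sites were described in the same way, among them Dmd, Rora, Lrp1b and Lsamp. Of these, 11 had a peak, and they held 34 peaks in 18.5 Mb, or 1.83 per Mb, with a median of 1.30. As the background, 68.2% of protein-coding genes of at least 300 kb and 79.4% of those of at least 700 kb had a peak. Rora, a nuclear receptor gene, had the most with 9, whereas Il1rapl1, Lrp1b and Large had 0. None of the 14 had its TSS in a peak, compared to 9.85% of genes of at least 300 kb. Of the 9 RDC-genes named in the study text, long neural genes with recurrent break clusters, 7 had a peak, beside the same background shares. Among them, Npas3 with 25 peaks and Cdh13 with 23 had more peaks than Exoc4. Per Mb, Npas3 had 30.4, whereas Cdh13, a longer gene than Exoc4, had 22.1, the same as the 22.1 of Exoc4. The TSS of Npas3, Cdh13 and Magi2 lay in a peak, and that of the other RDC-genes named did not. Outside the fragile site genes, the long genes most like their medians in peaks per Mb, covered percent and GC content together were Exoc6b, Abca13 and Rgs7, each with 1 peak, at a distance of 0.046 to 0.052 SD over the 528 genes. As a check of the labelled cell type, the TSS of Nes, Sox2 and Vim, marker genes of neural stem and progenitor cells, lay in a peak, while Fabp7 and Pax6 had none. Of 8 markers of other cell types 0 had the TSS in a peak and 1 had any peak, the myelin gene Mbp. Of all protein-coding genes, 14.9% had the TSS in a peak and 39.6% had any peak. A peak list does not measure expression.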

How the data were processed

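DRIP-seq peaks of primary NSPCs were taken as the authors deposited them, in a list whose unit is positions in base pairs (chromosome, start, end), with no count, signal or score. The authors trimmed reads (Trim Galore 0.6.6 per the submitters' processing notes), aligned them to mm9, discarded duplicates and used a Hidden Markov Model as the peak caller. How replicates were combined is not given in the sources used here, and depth per sample is unknown. The list was placed on the mm9 sequence and on GENCODE M1. Genes were matched by symbol, with older symbols from a RefSeq table of a later build. An overlap was counted from 1 bp, introns were bases outside the exons of every transcript of the gene, and positions used peak midpoints. Sequences were read from mm9. The overlap, merging and sequence steps were tested on simulated data with 200 genes, and returned the known count in 200.

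The genes and lists were chosen with earlier results of these data known. Named genes were the fragile site genes, genes overlapping or beside them, the other fragile site genes with the most and fewest peaks, and the 3 most similar long genes. Genes of the RDC list, those that the study's text names, were described in addition. Results for some genes and sequences are not reported here. The runs, the quadruplex pattern, the 700 kb class, the 60% GC limit, the GC neighbours and the shares of other long genes for flanks, GC content and position were chosen after seeing the data. Python 3.11.15, numpy 2.4.6, pandas 2.3.3, scipy 1.17.1, pysam 0.24.0 and matplotlib 3.10.9 were used. Alternatives covered peak size, merging, the overlap rule, gene limits and the TSS, TES and GC measures.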

Additional observations from a re-analysis of the deposited data

How the results depend on the processing

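Of 132 alternative values, 26 moved by more than 1.5 times or, for GC content, beyond its counting interval. With peaks of at least 1 kb, the total fell to 16, the density to 1.46 and its median to 0.77 per Mb, intronic midpoints to 16, peaks in the first 10% of the gene to 3 and mean GC to 44.3%. Genes with a peak then numbered 6 of the 9, 192 of the long genes and 3 of the other fragile site genes. Without Exoc4, chosen after seeing the data, the total was 23, at 2.26 per Mb, with 23 intronic midpoints, 3 in the first 10% and 46.9% GC. The TSS of any coding transcript lay in a peak in 1 gene (Auts2), and a peak lay within 1 kb of the TES in 1 (Exoc4). The first 50 kb held 1 peak, and pooled bases gave 44.6% GC. Of 200 coding genes of at least 500 kb, 148 had a peak. GC outside repeats was not run, since the genome marks none, and the distance from genes without a peak has no value because all 9 had one. Joining the Park2 models gave 40 peaks and merging touching peaks 37, both also chosen after seeing the data. No paired analysis was possible because 1 list was analysed. With no depth or signal per peak, a gene without a peak can have R-loops below detection, and peaks in repeats depend on the mapping.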
